A study of Mus musculus with 4 samples.

Results

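The genes described are those of the mitochondrial ribosomal proteins, found by their symbols: Mrpl or Mrps followed by a number and, in some, a letter from a to c. This name rule found 77 of the 48431 genes in the table, and no measured value entered the choice. By the systematic names of the subunits, 50 of the 77 encode proteins of the large subunit and 26 proteins of the small subunit. The symbols mislead in 3 cases: Mrps18a and Mrps30 encode large subunit proteins (mL66 and mL65), and Mrps36 encodes a component of the 2-oxoglutarate dehydrogenase complex that is no longer counted as a ribosomal subunit. Mrpl58 is listed under its older symbol Ict1, outside the rule, and is given apart.

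The values are ribosome footprints of dorsal root ganglia (DRG), where the cell bodies of the sensory neurons of the trunk and limbs lie. A translating ribosome shields a short piece of its mRNA from digestion, and such pieces of 28 to 34 nt were sequenced, so a gene's value follows the number of cytosolic ribosomes on its message. There was 1 group of 4 libraries, replicates 1 to 4, from male wild-type SW mice labelled as treated with methylglyoxal for 6 days (2 mg/kg, injected into the abdomen). Methylglyoxal is a reactive aldehyde that arises from sugar breakdown. A protocol text attached to the same samples names saline, against the treatment label. No source used here gives the age of the mice, their number per library or any pooling. No control libraries and no libraries of RNA abundance were analysed here, so neither an effect of methylglyoxal nor a translational efficiency could be computed, and the comparisons are between genes and between libraries.

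Mitochondria keep their own ribosome, which makes the few proteins that the mitochondrial genome encodes, all of them membrane subunits of the oxidative phosphorylation complexes. Its rRNAs are transcribed from mitochondrial DNA, but every one of its proteins is encoded in the nucleus, translated on cytosolic ribosomes and imported. Many of these proteins descend from those of bacterial ribosomes, and the others were added during the evolution of mitochondria. Sensory neurons depend on mitochondria far out along their axons, and the mitochondrial ribosome is made from the mRNAs measured here.

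The libraries held 3487634, 2633870, 2610537 and 3753015 reads, and 15279 genes had a mean of at least 1 CPM (reads per 1000000 reads), called detected here. Replicates 1 and 2 differed by little more than counting noise (chi-square per degree of freedom 1.03), as did replicates 3 and 4 (1.05), while libraries of different pairs gave 3.34 to 4.10. The labels call all of them replicates. For this reason the values of a pair were averaged first, and each mean ± SD that follows is taken over 2 such averages (n = 2). All 10 sensory neuron markers were detected, with sums of 6822, 6778, 7218 and 7245 CPM in replicates 1 to 4. Skeletal muscle markers, which a ganglion should lack, summed to 4220, 4276, 2635 and 2661 CPM, and were lower in replicates 3 and 4. In bulk tissue, fewer cells of a type and less RNA per cell cannot be told apart.

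All 77 genes were detected, and each reached at least 1 CPM in every library. A member had between 10 and 146 reads in a library. Together they took 1352, 1359, 1210 and 1192 CPM in replicates 1 to 4, or 1278 ± 110 CPM (SD, n = 2), which is 0.135%, 0.136%, 0.121% and 0.119% of all reads. Their mean levels were close to each other: 67 of the 77 had a mean of at least 10 CPM, and 3 reached 30 CPM. Levels of different genes are compared below as density, the CPM per kb of the longest annotated coding sequence, since a longer message holds more ribosomes. The median density of the members was 27.7, 27.9, 24.2 and 22.6 CPM per kb in replicates 1 to 4, or 25.6 ± 3.16 (SD, n = 2). The median over the 13813 detected nuclear protein-coding genes was 11.2 CPM per kb, and the members had 2.29 ± 0.249 times this density. The members are short genes, with a median coding length of 576 bases against 1425. In CPM, not divided by length, the medians were 15.2 and 15.6, and detected coding genes in the members' range of coding length had a median density of 16.0 CPM per kb.

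**Figure D1:**
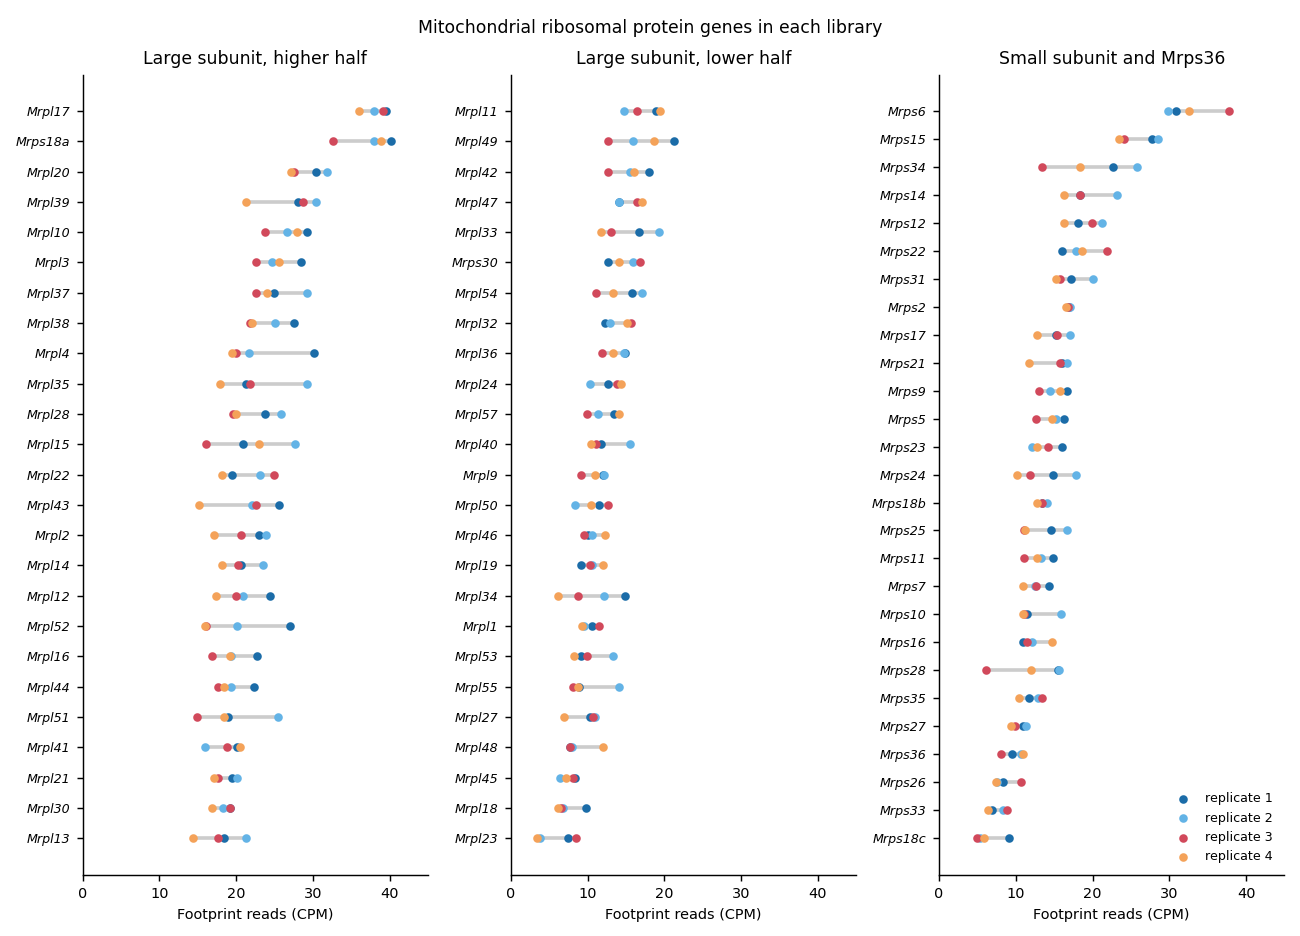
Footprint reads in CPM (horizontal axis, linear) for each of the 77 genes, with 1 point per library and a grey line over the range of the 4 libraries. The genes are ordered by mean within the large subunit (left and middle) and the small subunit with Mrps36 (right). Mrpl17 and Mrps18a stand highest, and most genes lie between 10 and 30 CPM with ranges that overlap those of their neighbours.

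Among the genes with the highest density were proteins of both subunits. Mrps6, which encodes bS6m, a protein of the small subunit platform, had 82.3, 79.4, 100.6 and 86.7 CPM per kb in replicates 1 to 4 (87.2 ± 9.05, n = 2). Replicate 3 was the highest, and every library lay above all libraries of the next gene. The gene lies at chr16:92058270-92112227 on the plus strand of GRCm38, and 159 of its exonic bases are shared with Slc5a3, a myo-inositol transporter gene that starts in the same first exon and had 99.5 CPM. A further annotated gene, Gm49711, shares 305 exonic bases with it. The values of Mrps6 were not whole reads in every library, so its place in the order is uncertain.

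Mrpl17 (bL17m, near the exit of the peptide tunnel) had 74.9, 71.9, 74.0 and 68.1 CPM per kb, with a mean of 72.2 ± 1.67. Mrpl20 (bL20m, an early binding protein of the large subunit in bacteria) had 68.0, 71.3, 61.7 and 60.8 CPM per kb. Mrps18a (mL66) had 68.3, 64.6, 55.4 and 66.2 CPM per kb. These 3 large subunit genes lay close together, and the ranges of Mrpl20 and Mrps18a overlapped.

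The small subunit genes next in order were Mrps21 (bS21m) at 57.7 ± 7.22 CPM per kb, Mrps14 (uS14m) at 49.6 ± 6.33 and Mrps12 at 45.3 ± 2.67. Mrps12 encodes uS12m, the protein of the decoding centre, and its 43.3, 51.0, 47.8 and 39.0 CPM per kb did not separate the pairs of libraries. Of the large subunit, Mrpl52 (mL52) had 54.5 ± 14.6 CPM per kb, Mrpl51 (mL51) 50.6 ± 10.2, Mrpl14 (uL14m, at the face between the subunits) 47.5 ± 4.68, Mrpl33 (bL33m) 47.3 ± 12.4 and Mrpl41 (mL41) 46.5 ± 2.85. Mrpl33 shares 261 exonic bases with Gm43809 on the same strand, which had 9.98 CPM, and its values were not whole reads in every library either. It and Mrps6 are the 2 members whose reads could not be tested as counts.

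At the other end stood proteins of both subunits too. Mrpl45, which encodes mL45, the protein by which the ribosome sits on the inner membrane beside the tunnel exit, had the lowest density, with 9.06, 7.03, 8.76 and 7.84 CPM per kb (8.17 ± 0.181). Mrps27 (mS27, a pentatricopeptide repeat protein) had 8.75, 9.15, 8.0 and 7.49 CPM per kb (8.35 ± 0.852). The ranges of these 2 genes overlapped. Mrpl1 (uL1m, of the L1 stalk) had 10.1 ± 0.252 CPM per kb, Mrpl23 (uL23m, at the tunnel exit) 11.2 ± 0.438, Mrps30 (mL65) 11.2 ± 0.644 and Mrps5 (uS5m) 11.3 ± 1.16. Mrpl19 (bL19m) and Mrpl46 (mL46) followed with 12.03 ± 1.02 and 12.5 ± 0.486 CPM per kb. The SD of Mrpl23 over the pair means is small although its libraries were far apart within each pair, at 14.4, 7.36, 16.3 and 6.71 CPM per kb.

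From the lowest to the highest member, density spanned 10.7-fold. Of the 76 neighbours in this order, 71 differed by no more than their SDs, and 3 had ranges over the 4 libraries that did not overlap: Mrps6 above Mrpl17, Mrps2 above Mrps18b, and Mrpl1 above Mrps27. The order is therefore resolved between distant members and not between most adjacent ones. The upper quartile of density was 1.89 times the lower quartile among the members. The same ratio was 7.07 over all detected nuclear coding genes and 3.07 over the 6725 of these in the same range of CPM. It was 2.03 in the nuclear genes of oxidative phosphorylation, 2.00 in the cytosolic ribosomal proteins, 5.28 in the mitochondrial translation factors and 1.85 in the assembly factors of the mitochondrial ribosome.

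Reads per gene hardly followed coding length. Coding length ran from 261 to 1326 bases, and across the 77 members Spearman's rho between CPM and coding length was 0.19. Density, which is the CPM divided by that length, fell with it (rho = -0.68). The 23 members of up to 447 bases had a median density of 41.9 CPM per kb, and the 15 members of 918 bases or more had 14.8. Detected coding genes in the CPM range of the members gave rho = -0.76 between density and length, and all detected coding genes gave -0.29. These correlations are descriptions across genes of the same libraries, and genes are not independent replicates.

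**Figure D2:**
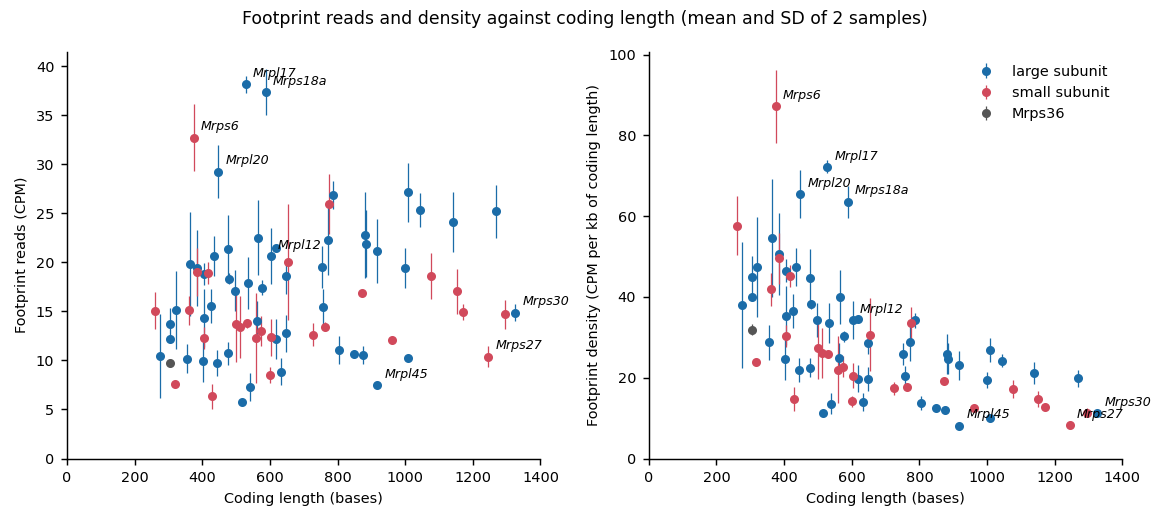
Mean footprint reads in CPM (left) and density in CPM per kb (right) against coding length in bases for the 77 genes, on linear axes, with error bars of 1 SD over 2 pair means. CPM stays level along the length axis with rho 0.19, and density falls from a median of 41.9 CPM per kb in the shortest class to 14.8 in the longest.

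The large subunit genes had a higher median density than the small subunit genes in every library. The medians were 28.5 ± 3.09 CPM per kb for the 50 large subunit genes and 22.1 ± 3.03 for the 26 small subunit genes. The ratio was 1.26, 1.26, 1.35 and 1.27 in replicates 1 to 4, or 1.29 ± 0.0369. Both groups had almost the same median coding length, 582 and 586.5 bases. Genes of bacterial type, whose products carry the systematic name of a bacterial ribosomal protein, had a median of 27.7 ± 3.54 CPM per kb (46 genes), and those named as specific to mitochondria, Mrps18a and Mrps18b among them, had 22.5 ± 2.30 (30 genes), a ratio of 1.23 ± 0.0313. That ratio was 1.003 when the whole exonic length was used in place of the coding length. The 10 mitochondria-specific genes of the small subunit were the lowest class, at 17.6 ± 0.659 CPM per kb, with the longest median coding length of the classes at 708 bases.

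The Mrps18 genes, which are 3 relatives of a single bacterial protein, differed in density. Mrps18a lies at chr17:46110986-46128910 on the plus strand, and its product sits in the large subunit. Mrps18b (mS40) lies on the same chromosome at chr17:35910379-35916389 on the minus strand and had 17.7, 18.4, 17.6 and 16.8 CPM per kb. Mrps18c (bS18m, the partner of bS6m) had 21.4, 12.4, 11.6 and 13.7 CPM per kb. Every library of Mrps18a was above every library of both others, while the ranges of Mrps18b and Mrps18c overlapped.

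Mrps18b lay below Mrps18a by a log2 density difference of -1.79 ± 0.05, in 4 of 4 libraries (two-sided exact sign-flip permutation p = 0.13, adjusted p = 0.25 over 4 contrasts). Mrps18a lay above Mrps18c by 2.07 ± 0.15, also in 4 of 4 libraries (exact permutation p = 0.13, adjusted p = 0.25). Mrps18b and Mrps18c differed by 0.28 ± 0.20, with Mrps18b higher in 3 of 4 libraries (exact permutation p = 0.25, adjusted p = 0.333), and this difference was 0.08 without replicate 2 and 0.48 without replicate 1. With exonic in place of coding length, the log2 difference of Mrps18b from Mrps18a was -0.58, that of Mrps18a from Mrps18c 0.72 and that of Mrps18b from Mrps18c 0.14. With 4 libraries this test cannot give a smaller p than these 0.13, so none of the differences could pass 0.05, and the near-duplicate pairs make the libraries fewer than 4 independent samples. Mrps18b shares 48.8% of its coding windows with other genes, mainly the pseudogene Gm13552, and Mrps18c shares 52.5%, of which 122 of its 402 windows are found in the pseudogene Gm15946. Both pseudogenes were at 0 in all libraries. Mrps18c also shares 250 exonic bases on the same strand with Gm43511, which was at 0 as well.

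The stalk that recruits translation factors is built from Mrpl12, which the ribosome carries in several copies, held by Mrpl10 next to Mrpl11 at the base. Mrpl12 (bL12m) had 40.4, 34.6, 33.0 and 28.7 CPM per kb. Mrpl10 (uL10m) had 37.2, 33.8, 30.2 and 35.6 CPM per kb, and Mrpl11 (uL11m) had 32.9, 25.7, 28.6 and 33.8. The 3 genes had overlapping ranges. The log2 density of Mrpl12 minus that of Mrpl10 was -0.01 ± 0.11, with Mrpl12 higher in 3 of 4 libraries (two-sided exact permutation p = 1). Mrpl12 had 1.35 ± 0.0302 times the median density of the other members, and 24 members had a higher density. With exonic length the ratio was 2.2.

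Other members with known roles lay between the extremes of the order. Mrpl2 (uL2m) and Mrpl3 (uL3m), which reach toward the peptidyl transferase centre, had 23.0 ± 3.51 and 24.2 ± 1.65 CPM per kb. Mrpl44 (mL44, with a ribonuclease III fold) had 19.5 ± 2.03. Mrps16 (bS16m) and Mrps22 (mS22), mutated in human mitochondrial disease, had 30.4 ± 2.71 and 17.3 ± 2.16, and Mrpl37, the structural relative of Mrps30, had 19.9 ± 2.12. Mrps36, the dehydrogenase component, had 31.9 ± 1.30 CPM per kb, within the range of the ribosomal members.

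The remaining ribosomal proteins under other symbols fell in the range of the members as well. Ict1 (mL62, a peptidyl-tRNA hydrolase built into the large subunit) had 22.4, 20.9, 18.8 and 18.9 CPM, which is 32.7 ± 3.18 CPM per kb. Aurkaip1 (mS38) had 51.0 ± 8.78 CPM per kb, Chchd1 (mS37) 46.8 ± 7.02, Dap3 (mS29) 33.0 ± 1.59 and Gadd45gip1 (mL64) 16.6 ± 0.0364. Ptcd3 (mS39) had 49.5, 40.2, 85.7 and 88.0 CPM, higher in both of replicates 3 and 4, and its values were not whole reads in every library.

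Set beside related gene groups, the members lay between the abundant proteins of energy metabolism and the low factors that serve the same ribosome. The 74 nuclear genes of oxidative phosphorylation had a median density of 150.3 ± 21.7 CPM per kb, so the members stood at 0.171 ± 0.00345 of it. These genes ran from 36.7 CPM per kb (Atp5g2, of the ATP synthase ring) to 757.5 (Cox8a, of cytochrome c oxidase). The 80 cytosolic ribosomal protein genes had 55.6 ± 2.24 CPM per kb, from Rps18 at 20.2 to Rpl41 at 421.3, and the members stood at 0.460 ± 0.0381 of it. The cytosolic genes share a median of 96.6% of their coding windows of 28 bases with other genes. Without genes that share at least 50% of their windows the ratio was 0.180. How reads with several matches were counted is not stated in any source used here.

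The 15 mitochondrial translation factor genes had a median of 10.9 ± 0.913 CPM per kb, and the members had 2.37 ± 0.0734 times this density. Tsfm, which encodes the elongation factor Ts, was the highest of these at 59.5 CPM per kb, and the release factor gene Mtrf1 the lowest at 1.78. Of the 24 assembly factor genes, all but Trmt61b had a coding length. Their median was 5.78 ± 0.457 CPM per kb, and the members had 4.42 ± 0.197 times this density. Malsu1, whose product binds Mrpl14 and keeps the immature subunits apart, was the highest at 14.6 CPM per kb and the GTPase gene Gtpbp10 the lowest at 1.83, with 90.5% of its windows shared. Both lists hold longer genes, with median coding lengths of 1299 bases for translation factors and 1114.5 for assembly factors. In CPM, not divided by length, their medians were 10.7 and 7.95, against 15.2 for the members. With a minimum of 10 CPM in all lists, which leaves out low factors, the density ratios were 1.57 for translation factors and 2.34 for assembly factors.

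**Figure D3:**
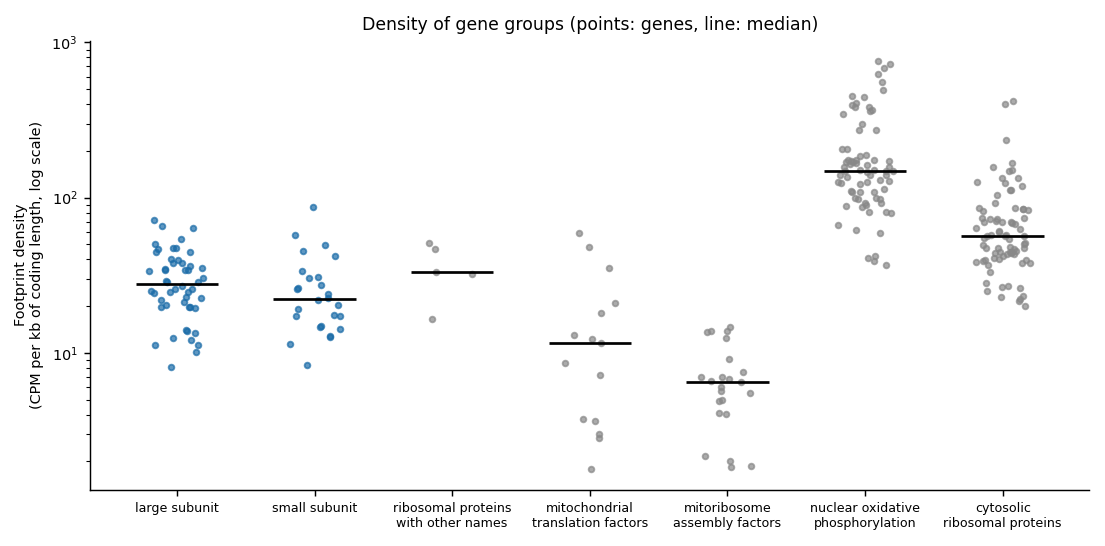
Mean footprint density in CPM per kb of coding length (vertical axis, log scale) for the genes of 7 groups, with 1 point per gene and a line at the median of the genes' means. The medians of the large and small subunit genes lie below those of the oxidative phosphorylation and cytosolic ribosomal protein genes and above those of the translation and assembly factors, while single genes of the groups overlap.

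The rRNAs of the mitochondrial ribosome itself were present in these libraries despite rRNA depletion. The small subunit rRNA, mt-Rnr1, had 25300, 25262, 27328 and 27115 CPM. The large subunit rRNA, mt-Rnr2, took 13.5%, 13.2%, 11.0% and 10.8% of all reads in replicates 1 to 4. It was lower in both of replicates 3 and 4, as was the summed CPM of the members, while mt-Rnr1 was higher in both. Such rRNA fragments are not footprints of translation, and their part in the level of the members was not tested.

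Between the pairs of libraries, the members differed by a small amount, most of them in the same direction. In 35 of the 77 genes both of replicates 3 and 4 were below both of replicates 1 and 2 (45.5% of the members, where 23.4% of all detected genes did so). In the opposite direction stood 5 genes, Mrps6, Mrpl32, Mrpl47, Mrpl24 and Mrps22 (6.49%, where 24.6% of all detected genes did so), and 37 had overlapping pairs. The mean of replicates 3 and 4 was the lower one in 59 members (50.5% of all detected genes). The median log2 ratio of replicates 3 and 4 over replicates 1 and 2 was -0.19 in the members and -0.00 over all detected genes, and it was -0.02 in the 7095 detected genes of the same CPM range. The summed CPM of the members was 1.13-fold higher in the first pair, and 1.15-fold higher per 1000000 reads of nuclear coding genes.

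The genes of oxidative phosphorylation had the same direction in 58 of 74, with a median log2 ratio of -0.21. The counts were 28 of 80 cytosolic ribosomal protein genes, 3 of 15 translation factors and 8 of 24 assembly factors. All 8 skeletal muscle markers were lower in both of replicates 3 and 4, with a median of 1.47-fold higher values in the first pair, while 7 of 10 sensory neuron markers were higher in both of replicates 3 and 4. Glial markers summed to 21148, 21229, 25947 and 26019 CPM, and spinal cord markers, of which 6 of 7 were detected and Olig2 was not, to 216, 216, 230 and 228 CPM. The spinal cord markers did not move together: 2 of the 6 detected were higher in both of replicates 3 and 4, and 2 were lower in both. Their largest value was that of Mag, with 132, 119, 159 and 161 CPM, while Gfap had 43.0, 59.2, 31.4 and 31.2 CPM. The part of these cell types in the shift of the members was not tested. The pairs are not groups of the study, so the shift compares libraries and no condition.

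**Figure D4:**
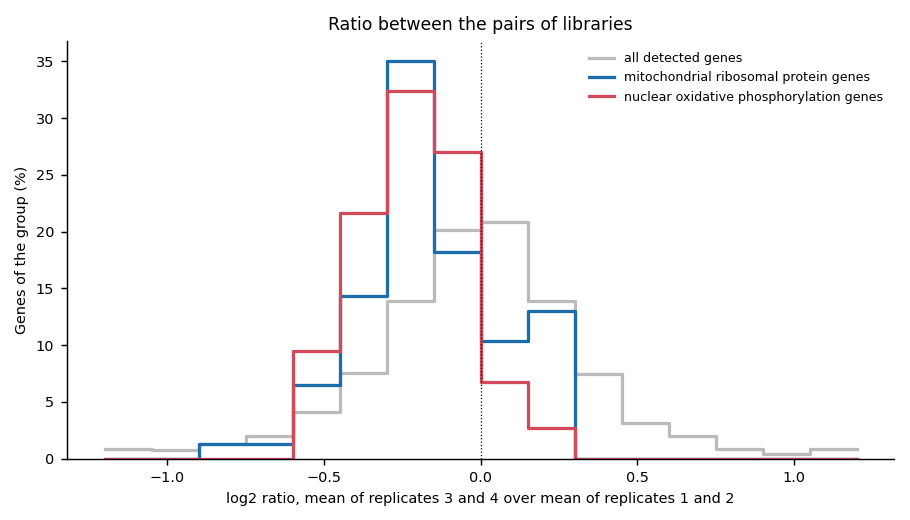
Distribution of the log2 ratio of the mean of replicates 3 and 4 over the mean of replicates 1 and 2 (horizontal axis, values beyond the axis put in the end classes), as percent of the genes of each group (vertical axis), for all detected genes, the 77 members and 74 oxidative phosphorylation genes. The members centre on -0.19 and the oxidative phosphorylation genes on -0.21, while all detected genes centre near 0.

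Gene by gene, few members were called as different among the 4 libraries. A chi-square test of the reads over the libraries (Benjamini-Hochberg over 13276 genes) called 7.38% of all genes tested and 1 of the 75 members tested. In detected genes of the same CPM range it called 4.08%. The unadjusted p of this test was below 0.05 in 11 members, and the share of all genes at that cut is not given here. The called gene was Mrpl34 (bL34m, chr8:71464959-71465747, plus strand), with 14.9, 12.1, 8.81 and 6.13 CPM (chi-square test, adjusted p = 0.0312), 1.81-fold higher in the first pair. Both libraries of the first pair lay above both of the second. Without replicate 1 no member was called (5.48% of all genes tested were), and without replicate 4 the call passed to Mrps28 alone (4.92% of all).

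The next members by this test missed the threshold of 0.05. Mrpl52 had 27.0, 20.1, 16.1 and 16.0 CPM (chi-square test, adjusted p = 0.05002). Mrps28 (bS1m) had 15.5, 15.6, 6.13 and 11.99 CPM (chi-square test, adjusted p = 0.0591). Mrps34 (mS34) had 22.7, 25.8, 13.4 and 18.4 CPM (chi-square test, adjusted p = 0.0886). All 3 were lower in both libraries of the second pair. Mrps34 shares 763 exonic bases on the same strand with Nme3, which had 10.5 CPM. Mrpl4, Mrpl23, Mrpl43, Mrpl35, Mrpl15 and Mrpl51 followed, with adjusted p of the chi-square test from 0.114 to 0.273, and Mrpl23 alone of these was not lower in the second pair's mean.

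Some members share coding sequence with other genes, either copies elsewhere in the genome or genes that overlap them. A window of 28 bases, the shortest footprint selected, was looked for in the transcripts of other genes. No window was shared in 42 members, some but under 50% in 22, and at least 50% in 13. The 13 were Mrps36 and Mrpl53 (100%), Mrps33 (90.4%), Mrpl23 (80.6%), Mrpl27 (70.3%), Mrpl51 (66.1%), Mrpl48 (60.1%), Mrps10 (57.1%), Mrps5 (54.2%), Mrpl41 (53.4%), Mrps16 (53.2%), Mrpl22 (53.1%) and Mrps18c (52.5%). Of the 35 members with a shared window, the main partner was listed in the table for 27, and 18 of these partners were at 0 in every library. Partners are not all copies elsewhere: Gm42688, Gm43809 and Gm49711 overlap Mrpl53, Mrpl33 and Mrps6 on the same strand. Since the counting of reads with several matches is not known, a value of 0 does not show that a partner gave no footprints. The 13 members with at least 50% shared had a median density of 23.9 CPM per kb and the 42 with none 25.3. Not divided by length, their medians were 10.2 and 16.9 CPM, so the members that share most had fewer reads. The part of sharing in this difference was not tested. Only 2 partners reached a mean of 1 CPM, Gm43809 and the pseudogene Mrpl48-ps, which had 0.573, 2.28, 1.15 and 1.60 CPM (2 to 6 reads).

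Mrpl48 and its pseudogene are shown to illustrate what a footprint can tell apart. The first window is identical in both, at coding positions 250 to 277 of Mrpl48, and lies in a gene pair whose longest identical run is 210 bases. The other 2 are the aligned window at coding positions 13 to 40, where they differ by T18C, counted from 1 at the 5′ end of the window with the base of Mrpl48 first, and the differing base is in capitals.
Mrpl48 and Mrpl48-ps, identical window: gattatgaatatggggttttaaacatcc
Mrpl48, window with 1 difference: ctgggaaaggtgctgggTgtgtggacca
Mrpl48-ps, window with 1 difference: ctgggaaaggtgctgggCgtgtggacca
A footprint of the identical window fits both genes.

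The 77 genes are spread over 17 chromosomes, with a median of 5 exons in the coding transcript. A protein-coding neighbour that starts upstream on the other strand within 1000 bases was found for 18 members (23.4%), against 9.22% of detected coding genes. The 18 leave out Mrps11 and Mrpl46, which lie on opposite strands and overlap each other by 173 exonic bases at their starts. Mrps12 starts 172 bases from Sars2, which encodes the mitochondrial seryl-tRNA synthetase, and Mrps27 starts 81 bases from Ptcd2, whose product acts on mitochondrial RNA. Mrpl49 stands 59 bases from Fau, whose product contains a cytosolic ribosomal protein, and Mrpl32 stands 75 bases from the proteasome gene Psma2. The neighbours' own levels ran from 0.438 CPM (Cyb5rl, beside Mrpl37) to 105.7 CPM (Psma2), while the 18 members lay between 6.33 and 26.9 CPM.

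Promoters from RefSeq (GRCm38.p6, 250 bases before to 50 after the start) were found for 68 of the 77 genes, 74 promoters in all, and searched on both strands for 5 short motifs known from housekeeping and mitochondrial genes. Matches may overlap, and no motif contains another. The NRF1 motif (GCGC, any base, then TGCGC) was in 13 promoters (17.6%), against 9.11% of promoters of detected coding genes and 4.60% of all promoters of the same length. The ETS motif CCGGAAGT was in 12 (16.2%, against 6.99% and 3.89%), and the YY1 motif AAGATGGC in 12 (16.2%, against 3.97% and 2.75%). CCAAT was in 40.5% (against 36.9% and 37.4%) and TATAAA in 6.76% (against 7.55% and 13.6%). Of the 68 genes, 34 held none of the first 3 motifs. These are matches of letters, and no binding was measured.

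The 250 bases before the start are shown for 5 members: Mrpl17 near the top of the order and Mrpl45 at its foot, which both hold the NRF1 motif, Mrps18a, which is near the top and holds no NRF1 motif, and Mrps12 and Mrps27, which share their upstream region with a gene on the other strand. Capitals mark matches of the NRF1, ETS, YY1 and CCAAT motifs on either strand. The positions are chr7:105811088-105811337 (minus strand) for Mrpl17, chr11:97315466-97315715 (plus) for Mrpl45, chr17:46110754-46111003 (plus) for Mrps18a, chr7:28741822-28742071 (minus) for Mrps12 and chr13:99344536-99344785 (plus) for Mrps27.
Mrpl17: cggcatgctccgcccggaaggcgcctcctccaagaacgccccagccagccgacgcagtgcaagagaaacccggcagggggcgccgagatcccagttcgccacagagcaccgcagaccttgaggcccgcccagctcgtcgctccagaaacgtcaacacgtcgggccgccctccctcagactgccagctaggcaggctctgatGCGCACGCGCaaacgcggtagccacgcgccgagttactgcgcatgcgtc
Mrpl45: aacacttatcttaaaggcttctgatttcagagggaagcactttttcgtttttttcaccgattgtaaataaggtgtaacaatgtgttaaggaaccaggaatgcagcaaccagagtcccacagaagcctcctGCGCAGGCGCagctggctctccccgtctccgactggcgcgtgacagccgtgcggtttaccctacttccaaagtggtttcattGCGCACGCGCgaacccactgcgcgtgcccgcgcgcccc
Mrps18a: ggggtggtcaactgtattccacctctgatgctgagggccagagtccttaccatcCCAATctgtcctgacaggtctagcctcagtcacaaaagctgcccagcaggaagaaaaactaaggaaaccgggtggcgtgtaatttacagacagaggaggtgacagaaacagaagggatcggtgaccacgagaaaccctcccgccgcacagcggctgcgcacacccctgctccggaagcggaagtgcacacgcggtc
Mrps12: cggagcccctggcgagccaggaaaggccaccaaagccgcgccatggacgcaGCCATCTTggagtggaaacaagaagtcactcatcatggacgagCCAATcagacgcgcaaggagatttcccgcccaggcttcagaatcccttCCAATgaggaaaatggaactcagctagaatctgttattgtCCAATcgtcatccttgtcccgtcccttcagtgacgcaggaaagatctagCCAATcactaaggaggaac
Mrps27: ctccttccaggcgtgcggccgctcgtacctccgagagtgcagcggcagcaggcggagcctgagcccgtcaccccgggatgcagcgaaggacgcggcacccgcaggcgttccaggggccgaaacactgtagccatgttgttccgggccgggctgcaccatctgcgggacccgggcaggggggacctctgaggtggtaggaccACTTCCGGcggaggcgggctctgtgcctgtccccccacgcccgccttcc
In Mrpl17 the capitals are 1 NRF1 match and in Mrpl45 they are 2. In Mrps18a they are a CCAAT match, in Mrps12 a YY1 match followed by 4 CCAAT matches, and in Mrps27 an ETS match. Mrps18a and Mrps27 also hold a YY1 match that ends after the start, outside the bases shown.

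Density did not separate by motif in one direction. The median was 26.9 CPM per kb in the 13 genes with the NRF1 motif and 26.0 in the 55 without, 19.6 in the 12 with the ETS motif and 27.1 in the 56 without, and 30.8 with the YY1 motif and 25.9 without. These differences were not tested.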

How the data were processed

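Dorsal root ganglion footprint libraries (4 libraries, 1 group, taken from the labels) were analysed. Tools named in the submitters' processing notes are TopHat2 2.1.1, Cufflinks 2.2.1, Bowtie2 2.2.9 and FastQC 0.11.5, with GRCm38.p4 (mm10) as the genome. No source used here gives the counting rule, strand setting or treatment of reads with several matches. The columns are headed TPM, but the values the authors deposited behave as CPM: each column sums to 1000000, and 96.9%, 97.0%, 97.0% and 96.5% of values above 0 were whole multiples of 1 step (tolerance 0.02 steps). Dividing by the step gave reads and depths, and a count of 0 allows 0.860, 1.14, 1.15 and 0.799 CPM in replicates 1 to 4 (3 reads, counting error only). Density divides by coding length from GENCODE M21 (GRCm38), and all reads are taken to lie in the coding sequence, which was not checked. A group's level is the median over genes in each library, averaged within pairs and then over pairs.

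Reads were compared over 4 libraries by a chi-square test (3 degrees of freedom), with Benjamini-Hochberg adjustment. It took genes with whole reads in every library, at least 24 reads in all and at least 5 expected reads in every library. Gene contrasts were compared by exact sign-flip tests on log2(CPM per kb + 1). The chi-square steps were tested on simulated data. The chi-square p-values measure differences between libraries beyond counting error, which may be technical. The sign-flip p-values measure how steadily a difference between genes keeps its direction over the libraries. Computation used Python 3.11.15 with scipy 1.17.1, pandas 2.3.3, numpy 2.4.6 and matplotlib 3.10.9. Alternatives changed the minimum, length, scaling, pseudocount, shared genes and replicates. The members and lists were chosen with earlier results of these data known. The genes named are the 12 highest and 8 lowest by density, those with set roles, those with at least 50% of windows shared, the 10 with the smallest chi-square p, those with a library far from the others, and the ends of each list; those that were higher in the second pair, that overlap or neighbour a member, or that show a motif were chosen after their values were seen.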

Additional observations from a re-analysis of the deposited data

Results flagged for a closer look

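In 4 members a single library stood far from the other 3, by the ratio of its gap to the whole range over the 4 libraries. Chance gives about 1 such case in 20 genes, and all 77 were looked at. Mrpl48 was high in replicate 4 alone, at 11.99 CPM, with 7.74, 7.97 and 7.66 CPM in replicates 1 to 3. Mrpl27 was low in replicate 4 alone, at 6.93 CPM, with 10.3, 11.0 and 10.7 CPM in the others. Mrps10 was high in replicate 2, at 15.9 CPM, against 11.5, 11.1 and 10.9 CPM in replicates 1, 3 and 4. Mrpl55 was high in the same library, at 14.05 CPM, against 8.89, 8.04 and 8.79 CPM. Each of these values stands apart from the library of its own pair, and none of these 4 genes was called by the chi-square test. Of the 4, Mrpl27, Mrpl48 and Mrps10 share at least 50% of their coding windows with other genes.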

How the results depend on the processing

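Of 120 alternatives over 16 results, 86 kept the result by the rule for its kind. Levels and ratios had to stay within their spread, contrasts between genes had to keep their sign, and counts had to stay within a set fold. Contrasts could thus change in size and count as kept, as Mrpl12 minus Mrpl10 did with exonic length (-0.2168). With no minimum the levels and ratios could not change, since all genes of these lists were already detected. Scaling by nuclear coding reads cannot change a ratio of densities within a library. The 86 include such cases. With exonic in place of coding length, the members' median density was 6.198 CPM per kb, the large to small subunit ratio 1.201, the bacterial-type to mitochondria-specific ratio 1.003, the ratio to oxidative phosphorylation 0.1281, to translation factors 2.802 and to assembly factors 3.106, and that of Mrpl12 to the others 2.2. With a minimum of 10 CPM, the bacterial-type ratio was 1.169, that to oxidative phosphorylation 0.1887, to translation factors 1.566, to assembly factors 2.338 and that of Mrpl12 1.226. Per 1000000 nuclear coding reads, the median density was 32.92, the log2 ratio between pairs -0.2252, and 38 members were lower in both of replicates 3 and 4 (27.34% of detected genes; an alternative chosen after seeing the data). Without genes sharing at least 50% of windows, the subunit ratio was 1.234, the bacterial-type ratio 1.356, that to oxidative phosphorylation 0.1649 and that to cytosolic ribosomal proteins 0.1797.

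The chi-square test called 3 members per 1000000 nuclear coding reads (7.14% of all genes tested) and 3 with at least 100 reads (10.4%). It called 0 members with no minimum (3.59% of all genes tested) and 2 with all values rounded (8.34%). With no minimum more genes enter the adjustment. Leaving out each replicate gave 0 to 2 members, where 4.92% to 6.72% of all genes tested were called. Leaving out replicates gave -0.205 to -0.142 for the log2 ratio between pairs and 1.302 to 1.401 for Mrpl12. The ranges were 4.179 to 4.415 for assembly factors and 2.218 to 2.513 for translation factors. The difference of Mrpl12 and Mrpl10 ran from -0.1126 to 0.09979 and reversed without replicate 2 (0.01431) and without replicate 4 (0.09979). The cause of the other changes was not tested. Scaling by a trimmed mean of ratios was not run. No paired analysis was possible because there is only 1 group. Levels rest on 10 to 146 reads a gene and library, so small differences between members or libraries were not detectable at this depth.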
